A study of Mus musculus with 15 samples.

Results

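The sarcomeric myosin heavy chain genes Myh1, Myh2, Myh3, Myh4, Myh6, Myh7, Myh7b and Myh8 were followed through the conversion of mouse embryonic fibroblasts (MEFs) into muscle progenitor cells. The 8 genes were chosen by name, and all transcripts annotated to each of them were summed. They stand among 35598 genes with a matched transcript, and all 8 passed the filter on low counts that left 19298 genes for testing.

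Poly-A RNA of 15 cultures was sequenced in bulk, from 3 MEF lines in each of 5 conditions. The lines were primary MEFs of the genotype Tg:Pax7-nGFP/C57BL6;DBA2, which carry a nuclear GFP reporter under Pax7 control, so no condition holds cells without that transgene. Cultures named +MyoD+F/R/C+CP, +MyoD+F/R/C+SP or +MyoD+F/R/C were transfected 4 times with synthetic MyoD mRNA and kept with forskolin (an activator of adenylyl cyclase), RepSox (an inhibitor of the TGF-β type I receptor) and CHIR99210 (a GSK3 inhibitor), together called F/R/C. CP stands for CP690550, an inhibitor of JAK kinases, and SP for SP600125, an inhibitor of JNK kinases, each added to F/R/C. The +MyoD cultures had the same 4 transfections without small molecules, and the transfected cultures of each kind had B18R, a decoy receptor for type I interferons, in the medium. MEFs were left untreated. Their labels give day 10 for each culture, while names given by the submitters mark the MEFs as day 0, and this could not be settled. MyoD mRNA, transfection and B18R were changed together between +MyoD and MEFs, and the medium and the days in culture may have differed too. The effects of all these cannot be told apart there.

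Muscle contracts when myosin heads on the thick filament pull on actin, and the heavy chain carries the head, the ATPase and the rod that packs into the filament. Mammals hold several heavy chain genes that are used at different stages and in different fibers. Myh3 encodes the embryonic chain and Myh8 the perinatal chain of developing and regenerating muscle. Myh2, Myh1 and Myh4 encode the adult fast chains IIa, IIx and IIb. Myh7 encodes the slow chain, which is also the beta chain of the heart, Myh6 encodes the alpha chain of the heart, and Myh7b encodes a related chain found in few fibers.

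The genes lie in 3 places of GRCm38. The developmental and fast genes form a cluster on the plus strand of chromosome 11, between 67078300 and 67308634, in the order Myh3 (chr11:67078300-67102291), Myh2 (chr11:67171027-67197517), Myh1 (chr11:67200052-67224575), Myh4 (chr11:67238029-67260446) and Myh8 (chr11:67277124-67308634). Myh6 (chr14:54941921-54966927) and Myh7 (chr14:54970684-54994626) lie side by side on the minus strand, and Myh7b lies apart on the plus strand (chr2:155611212-155634307). Their main transcripts had 39 to 42 exons and a coding sequence of 1935 to 1942 codons with the stop codon.

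The coding sequences are so alike that reads can be shared between genes, which bears on each value that follows. Of the positions aligned, 91.7% were identical between Myh6 and Myh7, 91.0% between Myh1 and Myh2 and 90.1% between Myh1 and Myh4, and the longest identical run was 268 bases (Myh1 and Myh2). Myh3 stood further off, with 80.2 to 81.0% identity to Myh1, Myh2, Myh4 and Myh8, and Myh7b furthest, with 68.8 to 72.0% identity to the other 7. Of the 31-base words by which the counting program kallisto assigns reads, the share found in no other gene was 99.7% in Myh7b, 89.2% in Myh3, 69.6% in Myh4, 67.5% in Myh8, 67.0% in Myh6, 60.8% in Myh7, 59.1% in Myh2 and 55.3% in Myh1. Most of the shared words of Myh6 and Myh7 were shared between these 2 genes, and likewise for Myh1 and Myh2, so the split within either pair is the least certain.

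The stretch of 60 coding bases in which the 6 genes with the most counts differ most is shown here, because it is sequence of this kind that tells the genes apart. It lies in the head-coding part of each gene, and capitals mark a base found in that gene and in none of the other 5 at that position. Mean identity between pairs over the stretch was 60.6%. Coordinates are those of GRCm38, and the Myh3 stretch runs over an intron between exons 16 and 17.
Myh3 (chr11:67089067-67089242, plus strand): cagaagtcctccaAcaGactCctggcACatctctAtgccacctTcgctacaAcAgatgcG
Myh8 (chr11:67289776-67289835, plus strand): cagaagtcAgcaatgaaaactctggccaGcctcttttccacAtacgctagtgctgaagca
Myh1 (chr11:67209102-67209161, plus strand): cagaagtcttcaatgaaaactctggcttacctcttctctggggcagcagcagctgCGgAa
Myh2 (chr11:67181284-67181343, plus strand): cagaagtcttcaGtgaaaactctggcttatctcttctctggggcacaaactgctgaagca
Myh4 (chr11:67248695-67248754, plus strand): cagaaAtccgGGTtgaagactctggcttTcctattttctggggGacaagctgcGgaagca
Myh7 (chr14:54987222-54987281, minus strand): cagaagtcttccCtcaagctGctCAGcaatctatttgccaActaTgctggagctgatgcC
Myh3 had 10 such bases, Myh7 8 and Myh4 7, whereas Myh8 and Myh1 had 3 each and Myh2 had 1.

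Library totals lay between 29393872 and 41885769 estimated counts, and the 8 genes took 112041 to 252155 of them in a culture with F/R/C, 18403 to 40904 with +MyoD alone and 56 to 92 in MEFs. Levels of 1 gene are given as CPM, counts per 1000000 after scaling by TMM factors, and genes are compared by TPM, the authors' transcript estimates per 1000000, which are per length. Myod1, the gene of the transfected mRNA, had 788 to 3846 CPM in the 12 transfected libraries and 0.113 to 0.556 CPM in MEFs, and the synthetic and the cell's own mRNA cannot be told apart in these values. It was highest in line 1 in each of the 4 transfected conditions, and none of the 8 heavy chain genes was highest there in all 4. In bulk RNA, fewer muscle cells and less heavy chain mRNA per muscle cell cannot be told apart.

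The first comparison set the +MyoD cultures, which had no small molecules, against MEFs. Of the 8 genes, 7 rose and none fell with +MyoD, Myh6 being the exception, where a call means a Benjamini-Hochberg adjusted p of at most 0.05 over all genes in edgeR's quasi-likelihood test and a log2 fold change (log2FC) over 0.5 in size. Over all genes tested, 22.8% were called higher, 18% lower and 40.8% in either direction. Myh3 had 534, 246 and 618 CPM in the +MyoD cultures of lines 1, 2 and 3, against 1.84, 1.11 and 1.02 CPM in MEFs of the same lines (log2FC 8.46 ± 0.40 SE, adjusted p = 1.63e-09). Myh8 had 187, 199 and 366 CPM with +MyoD, against 0.167, 0.0283 and 0.234 CPM in MEFs (log2FC 10.75 ± 0.44 SE, adjusted p = 5.32e-10). Both developmental genes were thus high in each +MyoD culture and low in each MEF culture, with no overlap. A MEF library held 35 to 66 counts of Myh3 and 1 to 8 of Myh8, the latter near the limit of detection.

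MEFs held few reads of these genes, and the folds over MEFs rest on that floor. Summed over 3 libraries, MEFs had 140 counts of Myh3, 28 of Myh6, 26 of Myh7, 15 of Myh8, 9 of Myh7b and 6 of Myh1. Myh2 and Myh4 had 0 counts in each MEF library. Set against an assumed floor of 3 counts over the group, pooled Myh4 CPM was 1568-fold higher with +MyoD and Myh2 178-fold higher. Their exact 95% lower limits were 1274.9 and 144. The pooled fold was 349 for Myh3 (exact 95% interval 296 to 415), 1765 for Myh8 (1069.9 to 3154), 524 for Myh1 (241 to 1429.6), 223 for Myh7 (152 to 342) and 51.3 for Myh7b (26.8 to 113). These intervals cover counting error alone. All 9 counts of Myh7b in MEFs came from line 3, and without that library its log2FC was 10.33 in place of 5.60. Without +MyoD line 3, that of Myh1 was 7.68 in place of 8.95 and that of Myh4 12.30 in place of 13.68 (with MEFs at 0, Myh4 values of this kind depend on the prior count), and without MEF line 1 that of Myh1 was 9.85 and that of Myh7b 5.01.

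Myh7 was among the genes raised by +MyoD alone, and it varied least between lines. It had 61.1, 51.2 and 53.2 CPM in the +MyoD cultures, against 0.223, 0.113 and 0.410 CPM in MEFs (log2FC 7.78 ± 0.47 SE, adjusted p = 1.31e-08). Myh1 in the same cultures spread from 7.10 CPM in line 2 to 64.5 CPM in line 3, and Myh4 from 11.6 CPM in line 1 to 98.8 CPM in line 3. Line 3 was the highest of the +MyoD cultures in Myh1, Myh2, Myh3, Myh4, Myh6 and Myh8, but not in Myh7 or Myh7b.

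Myh6 did not pass. It had 0, 0 and 0.475 CPM in the +MyoD cultures, which is 16 counts in line 3 and 0 in the others, against 0.223, 0.312 and 0.263 CPM in MEFs (log2FC -0.73 ± 0.93 SE, adjusted p = 0.565). Without +MyoD line 3, which leaves +MyoD at 0, it was called lower (log2FC -6.33, adjusted p = 0.000276), as it was with counts rebuilt from TPM (log2FC -2.84, adjusted p = 0.0348).

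**Figure D1:**
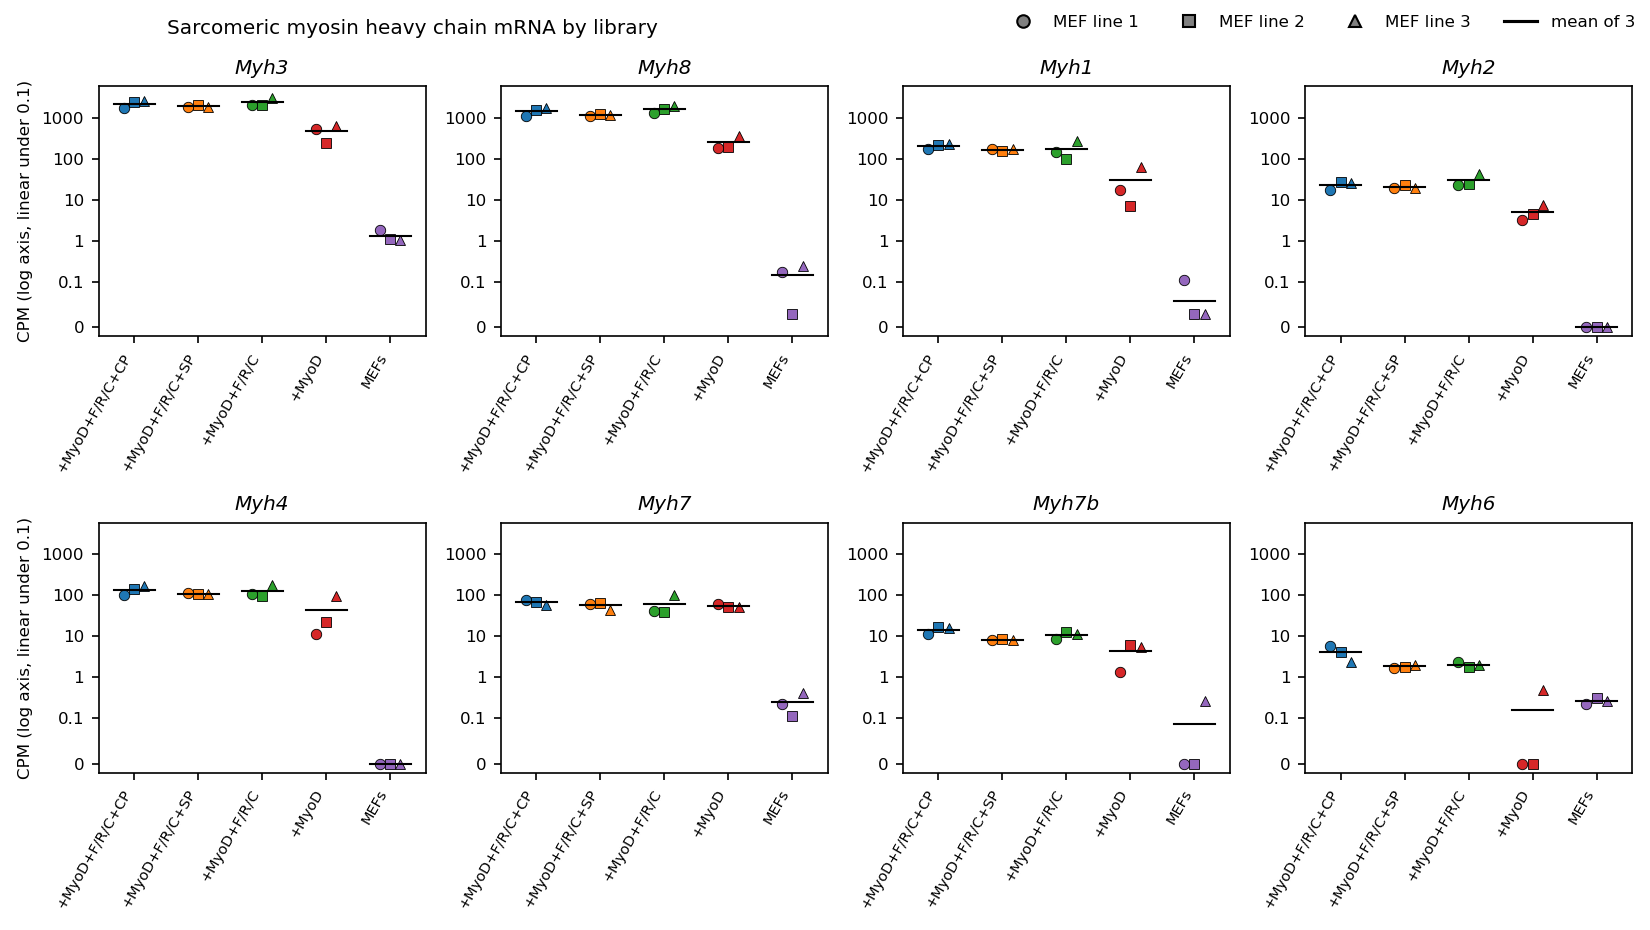
Level of each sarcomeric myosin heavy chain gene by library, in CPM on an axis that is logarithmic above 0.1 and linear below it. Each point is 1 culture of the MEF line shown by its symbol, the bar is the mean of 3, and conditions run from +MyoD+F/R/C+CP on the left to MEFs on the right. Myh3 and Myh8 had 1113 CPM or more in each culture with F/R/C, while Myh7 lay between 38.4 and 103 CPM there and between 51.2 and 61.1 CPM with +MyoD.

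The next comparisons asked what the small molecules added to MyoD mRNA. Against +MyoD, 5 of the 8 genes rose with +MyoD+F/R/C+SP, and the same 5 with +MyoD+F/R/C, namely Myh1, Myh2, Myh3, Myh6 and Myh8. With +MyoD+F/R/C+CP, 7 rose, Myh4 and Myh7b in addition, and none fell in the 3 comparisons. Of all genes, 22.6% were called with +MyoD+F/R/C+CP (12.6% higher, 10% lower). With +MyoD+F/R/C+SP, 21% were called (12% higher, 8.95% lower), and +MyoD+F/R/C gave 19.4% (10.9% higher, 8.41% lower). The median log2FC of the 8 genes was 2.23, 2.04 and 2.45 in these comparisons, and that of all genes 0.02, 0.01 and 0.03. The 3 comparisons share the +MyoD cultures and are not independent.

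Myh3, the embryonic chain, was the most abundant of the 8 genes per length in each transfected library. It had 1746, 2402 and 2542 CPM with +MyoD+F/R/C+CP, 1845, 2048 and 1867 CPM with +MyoD+F/R/C+SP and 2046, 2089.7 and 2997 CPM with +MyoD+F/R/C, against 534, 246 and 618 CPM with +MyoD. The lowest of the 9 cultures with F/R/C was thus above the highest +MyoD culture. The log2FC was 2.26 ± 0.29 (SE) with +MyoD+F/R/C+CP, 2.04 ± 0.29 under +MyoD+F/R/C+SP and 2.35 ± 0.29 under +MyoD+F/R/C, with adjusted p = 5.34e-05, 0.000135 and 4.92e-05.

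Myh8, the perinatal chain, moved in the same way. It had 1113, 1522 and 1712 CPM with +MyoD+F/R/C+CP, 1119, 1218 and 1177 CPM with +MyoD+F/R/C+SP and 1329.6, 1679 and 1909 CPM with +MyoD+F/R/C, against 187, 199 and 366 CPM with +MyoD. No culture with F/R/C overlapped one without. The log2FC was 2.53 ± 0.27 (SE, adjusted p = 1.39e-05), 2.23 ± 0.27 (adjusted p = 4.17e-05) and 2.71 ± 0.28 (adjusted p = 1.08e-05) in the same order.

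The adult fast genes were lower per length than the developmental pair. Myh1 averaged 59.0, 50.1 and 52.0 TPM with +MyoD+F/R/C+CP, +MyoD+F/R/C+SP or +MyoD+F/R/C, where Myh3 averaged 624, 521 and 672 TPM. Myh1 had 169.6, 213 and 227 CPM with +MyoD+F/R/C+CP, 172, 159 and 169.6 CPM with +MyoD+F/R/C+SP and 146, 101 and 279 CPM with +MyoD+F/R/C, against 17.7, 7.10 and 64.5 CPM with +MyoD. Myh2 had 17.2, 26.6 and 26.1 CPM with +MyoD+F/R/C+CP, 19.9, 22.9 and 19.2 CPM with +MyoD+F/R/C+SP and 23.5, 23.8 and 41.9 CPM with +MyoD+F/R/C, against 3.26, 4.60 and 7.27 CPM with +MyoD. Neither gene overlapped between cultures with and without F/R/C. For Myh1 the log2FC was 2.77 ± 0.56, 2.49 ± 0.56 and 2.56 ± 0.56 (SE, adjusted p = 0.00202, 0.00439 and 0.00395). For Myh2 it was 2.21 ± 0.32, 2.03 ± 0.31 and 2.56 ± 0.32 (SE, adjusted p = 0.000212, 0.000437 and 9.77e-05). Without +MyoD line 3 the log2FC of Myh1 was 4.04, 3.76 and 3.82. With no other libraries in the fit than the 6 compared, Myh1 lost its call for +MyoD+F/R/C (adjusted p = 0.0703).

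Myh4, the IIb chain, was the fast gene whose call depended most on 1 culture. It had 101, 146 and 167 CPM with +MyoD+F/R/C+CP, 111, 106 and 105 CPM with +MyoD+F/R/C+SP and 105, 94.6 and 174 CPM with +MyoD+F/R/C, against 11.6, 22.2 and 98.8 CPM with +MyoD. The +MyoD culture of line 3 lay above the +MyoD+F/R/C culture of line 2 and below the other 8 cultures with F/R/C. The log2FC was 1.64 ± 0.56 (SE, adjusted p = 0.0481), 1.28 ± 0.56 (adjusted p = 0.122) and 1.49 ± 0.56 (adjusted p = 0.0773), so that the first alone passed. Without +MyoD line 3 the 3 values were 3.03, 2.67 and 2.88 (adjusted p = 5.03e-05, 0.000128 and 8.21e-05). When the fit held each MEF line as a block, Myh4 also passed with +MyoD+F/R/C+SP (log2FC 1.71, adjusted p = 0.0188) and +MyoD+F/R/C (log2FC 1.80, adjusted p = 0.0143). The call with +MyoD+F/R/C+CP was lost in 15 of 22 alternatives, 12 of them the removal of 1 library out of 15, with adjusted p between 5.03e-05 and 0.146.

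Myh7, the slow chain, did not pass in any of the 3 comparisons. It had 77.8, 67.5 and 58.1 CPM with +MyoD+F/R/C+CP, 61.5, 63.2 and 44.6 CPM with +MyoD+F/R/C+SP and 41.3, 38.4 and 103 CPM with +MyoD+F/R/C, against 61.1, 51.2 and 53.2 CPM with +MyoD. The groups overlapped in each comparison, and the highest and the lowest of the 12 values were both cultures with +MyoD+F/R/C. The log2FC was 0.30 (95% interval -0.36 to 0.96, adjusted p = 0.542), 0.03 (-0.63 to 0.69, adjusted p = 0.961) and 0.15 (-0.51 to 0.80, adjusted p = 0.804). The upper bounds of these intervals lay below the lower bounds for Myh3 and Myh8 in the same comparisons, the lowest of which was 1.43. They overlapped the intervals of Myh4 (lower bounds 0.44, 0.09 and 0.30) and Myh7b (0.55, -0.26 and 0.12). Differences between genes were not tested. Without +MyoD+F/R/C line 3 the log2FC of Myh7 for +MyoD+F/R/C was -0.46 (adjusted p = 0.187).

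The cardiac gene Myh6 had the lowest mean per length of the 8 in each transfected condition, 3.16, 1.94 and 2.25 TPM in cultures with F/R/C, against 0.0435 TPM with +MyoD. Most of the TPM with F/R/C lay in short annotated transcripts, and over those of more than 5000 bases the means were 1.01, 0.419 and 0.476 TPM, against 0.0435 TPM. Myh6 had 5.88, 4.11 and 2.38 CPM with +MyoD+F/R/C+CP, 1.72, 1.75 and 2.03 CPM with +MyoD+F/R/C+SP and 2.33, 1.73 and 2.03 CPM with +MyoD+F/R/C, against 0, 0 and 0.475 CPM with +MyoD. It rose in the 3 comparisons without overlap (log2FC 4.67 ± 0.94, 3.50 ± 0.91 and 3.65 ± 0.91 SE, adjusted p = 0.00188, 0.0113 and 0.00952). Its size rests on the 16 counts of +MyoD line 3, without which +MyoD stood at 0 and the log2FC was 10.27, 9.10 and 9.25, values that depend on the prior count. With the 6 libraries compared alone in the fit, its calls for +MyoD+F/R/C+SP as well as +MyoD+F/R/C were lost (adjusted p = 0.121 and 0.119).

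Myh7b had 11.7, 16.4 and 15.5 CPM with +MyoD+F/R/C+CP, 8.09, 8.47 and 7.99 CPM with +MyoD+F/R/C+SP and 8.32, 12.5 and 11.3 CPM with +MyoD+F/R/C, against 1.35, 6.11 and 5.49 CPM with +MyoD. No culture with F/R/C overlapped one without, but line 1 with +MyoD lay far below the other +MyoD cultures. The log2FC was 1.75 ± 0.56 (SE, adjusted p = 0.0326), 0.92 ± 0.55 (adjusted p = 0.266) and 1.31 ± 0.56 (adjusted p = 0.112). The first was lost without +MyoD+F/R/C+CP line 2 or 3 (adjusted p = 0.0854 and 0.0775) or +MyoD line 1 (adjusted p = 0.0630), and the last was called with DESeq2 (adjusted p = 0.0192), with counts rebuilt from TPM (adjusted p = 0.0146), with the 12 transfected libraries alone (adjusted p = 0.0382) and without MEF line 3 (adjusted p = 0.0398).

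**Figure D2:**
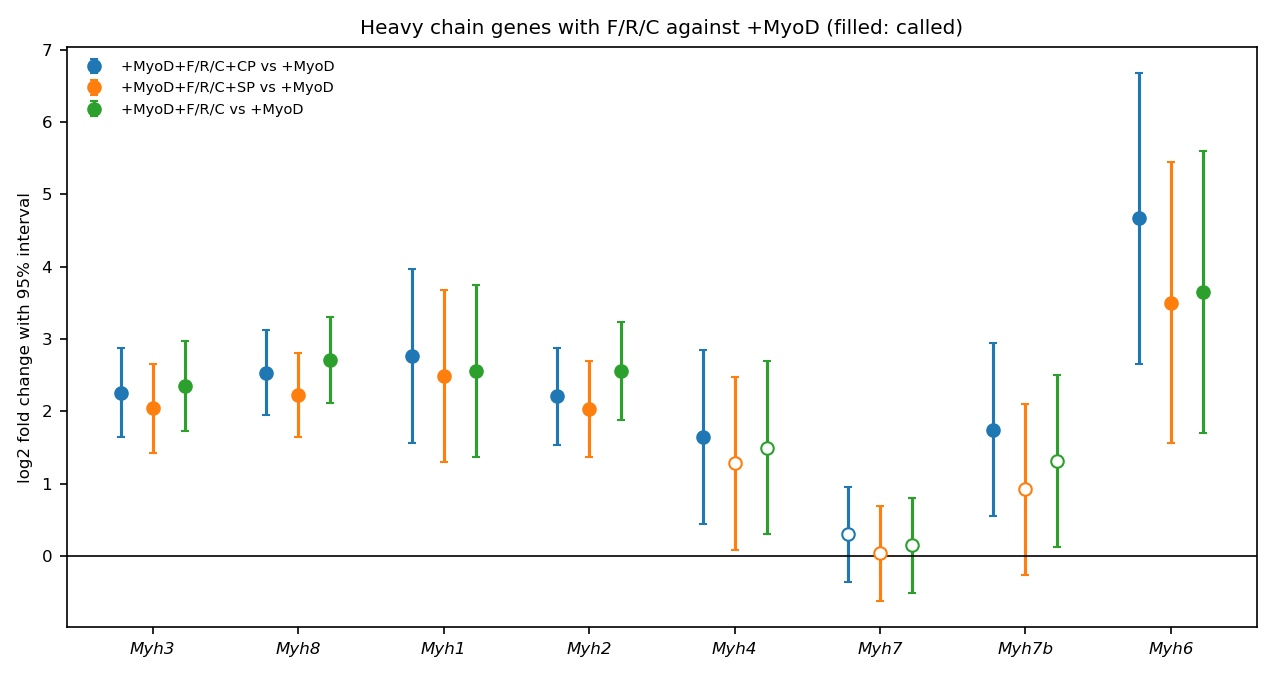
Fold change of each gene against +MyoD, as log2FC with its 95% interval from edgeR's quasi-likelihood test, for +MyoD+F/R/C+CP (blue), +MyoD+F/R/C+SP (orange) and +MyoD+F/R/C (green). Filled points were called. The intervals of Myh7 span 0 and end below those of Myh3 and Myh8, which start at 1.43 or higher. They overlap those of Myh4 and Myh7b.

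Against MEFs, each of the 8 genes was called higher in the cultures with F/R/C, and many other genes were too. Of all genes, 45.5% were called with +MyoD+F/R/C+CP (24.9% higher, 20.6% lower), 44.6% with +MyoD+F/R/C+SP (24.5% higher, 20.1% lower), and 48.3% in the +MyoD+F/R/C cultures (26.6% higher, 21.7% lower). Pooled over 3 libraries, Myh3 was 1651-fold, 1451-fold and 1813-fold higher than in MEFs in these conditions, and Myh7 279-fold, 232-fold and 256-fold. Myh6 had the smallest folds, 16.1 with +MyoD+F/R/C+CP, 6.85 in +MyoD+F/R/C+SP cultures and 7.64 in +MyoD+F/R/C cultures, and without MEF line 1 its call with +MyoD+F/R/C+SP was lost (adjusted p = 0.0513). Counts rebuilt from TPM gave Myh7 a log2FC over MEFs of 5.87, 5.77 and 5.84 in place of 8.08, 7.82 and 7.93, and Myh1 one of 8.32, 8.10 and 8.09 in place of 11.72, 11.44 and 11.51. Without MEF line 1, Myh1 was at 12.62, 12.34 and 12.41. Myh7b, at 7.34, 6.52 and 6.91, was at 12.08, 11.26 and 11.64 without MEF line 3. The removal of MEF line 1 gave it 6.76 with +MyoD+F/R/C+CP and 6.32 with +MyoD+F/R/C. Without +MyoD+F/R/C line 3, Myh7 was at 7.28 in that condition.

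The comparisons within the F/R/C cultures asked whether a JNK or JAK inhibitor changed the heavy chains further. None of the 8 genes was called in +MyoD+F/R/C+SP against +MyoD+F/R/C, in +MyoD+F/R/C+CP against +MyoD+F/R/C or in +MyoD+F/R/C+CP against +MyoD+F/R/C+SP, where edgeR called 0%, 0.0363% and 0.197% of all genes. None of the 8 had an unadjusted p under 0.05 either, the lowest p being 0.0821, 0.210 and 0.153 in edgeR's quasi-likelihood test, and DESeq2 called 0 of the 8. Among all genes there were 1279, 1526 and 775 with an unadjusted p of that size, while the calls of DESeq2 were 49 up and 16 down, 76 up and 125 down, and 5 up and 95 down. For Myh3 the log2FC was -0.31 (95% interval -0.90 to 0.28), -0.09 (-0.68 to 0.50) and 0.22 (-0.38 to 0.81). For Myh8 it was -0.48 (-1.04 to 0.07), -0.18 (-0.73 to 0.38) and 0.31 (-0.25 to 0.86). For Myh1 it was -0.07 (-1.19 to 1.05), 0.21 (-0.91 to 1.33) and 0.28 (-0.84 to 1.40) and its intervals were the widest of these 3 genes. Myh6 was furthest from 0 with +MyoD+F/R/C+CP, at 1.02 (-0.64 to 2.68) against +MyoD+F/R/C.

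Some values nevertheless lay apart. With SP, Myh2 and Myh8 were below +MyoD+F/R/C without overlap, and Myh2, Myh3, Myh7b and Myh8 were lower in 3 of 3 lines. With CP, Myh6 lay above +MyoD+F/R/C without overlap, Myh6 and Myh7b were higher in 3 of 3 lines and Myh8 was lower in 3 of 3. In CP against SP cultures, Myh6 and Myh7b were higher without overlap, and Myh6, Myh7 and Myh7b were higher in 3 of 3 lines. With the MEF line as a block, 0 of the 8 genes were called in each of these comparisons. For 3 libraries against 3, an exact permutation test can reach no p under 0.10. How many of all genes showed such patterns was not counted, so they are a description.

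Per length, 2 genes made up most of the heavy chain mRNA in each transfected library. Summed TPM of the 8 genes was 900.3, 1248 and 1356 with +MyoD+F/R/C+CP, 913, 1004 and 945 in cultures with +MyoD+F/R/C+SP and 1038, 1104 and 1642 in those with +MyoD+F/R/C, against 231, 144 and 345 with +MyoD and 0.991, 1.03 and 1.59 in MEFs. Myh3 held 51.5 to 55.4% of this TPM sum over the 9 cultures with F/R/C, against 43.1 to 64.5% with +MyoD. Myh8 held 32.7 to 40.8%, against 22.3 to 34.6%. The developmental share (Myh3 and Myh8 together) was 87.7 ± 1.24%, 87.9 ± 0.769% and 89.9 ± 2.41% with +MyoD+F/R/C+CP, +MyoD+F/R/C+SP and then +MyoD+F/R/C, against 80.6 ± 5.35% with +MyoD (mean ± SD, n = 3).

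In TPM, the shares of Myh7 and Myh6 did not overlap between cultures with F/R/C and +MyoD, while those of the other 6 genes did. Myh7 made up 3.72, 1.80 and 1.78% of the TPM sum in cultures with +MyoD+F/R/C+CP, 2.77, 3.08 and 1.98% in those with +MyoD+F/R/C+SP and 1.83, 1.37 and 2.93% in cultures with +MyoD+F/R/C, against 8.61, 14.8 and 8.47% with +MyoD. The 9 cultures with F/R/C lay below each +MyoD culture. Myh6 made up 0.123 to 0.616% with F/R/C, against 0 to 0.0378% with +MyoD. For Myh6 the gap depended on the unit, since its share overlapped when taken from estimated counts (0.0370 to 0.181%, against 0 to 0.0394%) or from transcripts over 5000 bases (0.0317 to 0.154%, against 0 to 0.0399%), while that of Myh7 did not overlap in either. Shares are given as a description, with no test. The slow and cardiac share (Myh6, Myh7 and Myh7b) was 2.27 to 4.81% over the 9 cultures, against 9.08 to 15.9% with +MyoD. Taken from estimated counts in place of TPM, it was 1.30 to 2.94%, against 4.87 to 10.7%, and from transcripts over 5000 bases alone 1.21 to 2.76%, against 4.40 to 10.0%. Myh7 CPM itself overlapped between these groups, so its share was lower beside a larger sum.

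Ratios within a library do not use the sum. Myh7 to Myh3 TPM was 0.0266 to 0.0705 in the 9 cultures with F/R/C, against 0.134, 0.344 and 0.174 with +MyoD, with no overlap. Over transcripts of more than 5000 bases it was 0.0173 to 0.0418, against 0.110, 0.190 and 0.0766, again with no overlap. Myh3 to Myh8 was 1.26 to 1.69, against 2.89, 1.24 and 1.71, so the developmental pair kept a narrower ratio with F/R/C than over the +MyoD lines. Myh4 to Myh1 was 0.577 to 0.919, against 0.656, 2.38 and 1.53. The adult fast share (Myh1, Myh2 and Myh4) was 5.46 to 9.73% over the cultures with F/R/C and spread over 4.00, 6.34 and 13.6% in lines 1, 2 and 3 with +MyoD, so these groups overlapped.

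**Figure D3:**
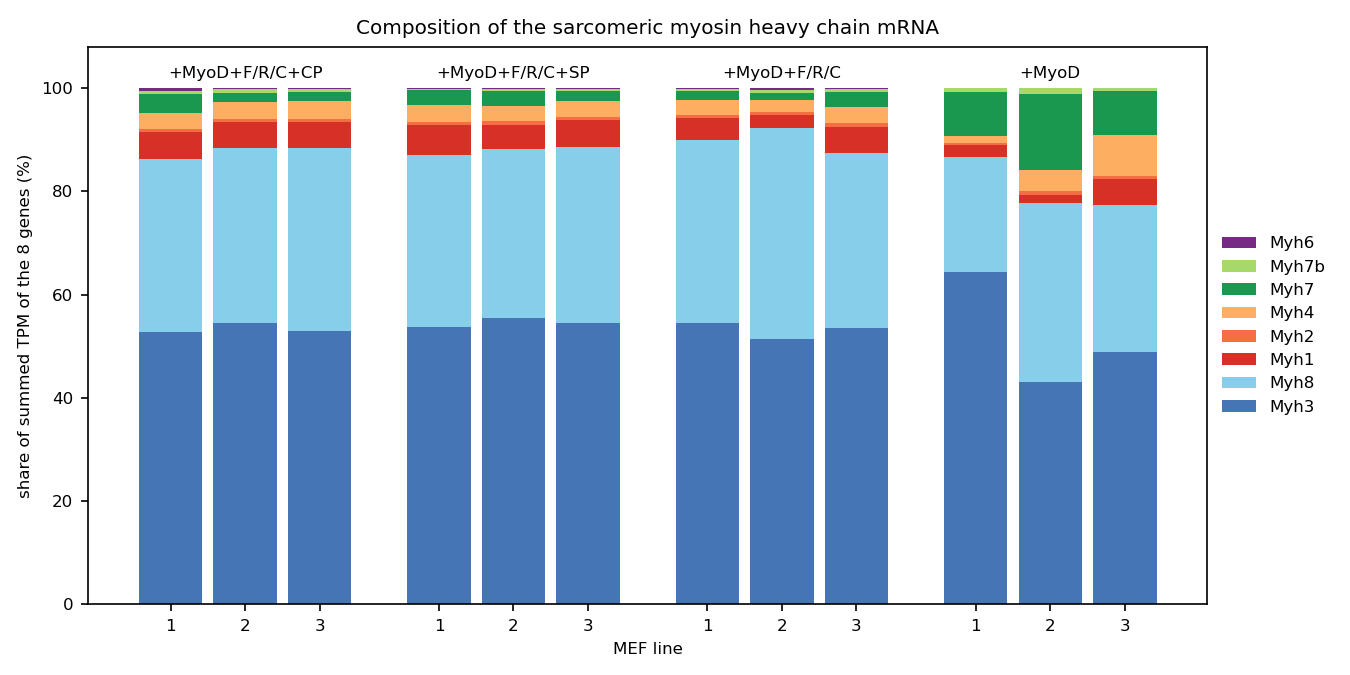
Composition of the heavy chain mRNA, as the share of each gene in the summed TPM of the 8 genes (0 to 100%), in the 12 transfected libraries. Bars are single cultures of MEF lines 1, 2 and 3, and MEFs are left out since 56 to 92 counts stand behind them. Myh7 (dark green) takes 8.47 to 14.8% with +MyoD and 1.37 to 3.72% with F/R/C.

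Thick and thin filament partners show whether other slow-fiber genes behaved as Myh7 did. With +MyoD alone, all 10 fast-fiber partners were higher than in MEFs (median log2FC 8.01), and of 9 slow-fiber partners 7 were higher and 1, Atp2a2, lower. Against +MyoD, all 10 fast-fiber partners rose again in each of the 3 conditions with F/R/C, with a median log2FC of 2.41 for +MyoD+F/R/C+CP, 2.004 for +MyoD+F/R/C+SP and 2.57 for +MyoD+F/R/C. Among all genes, 12.6, 12 and 10.9% were called higher against +MyoD in that order, which holds for each list below. The lowest p-values in +MyoD+F/R/C belonged to Actn3 (Z-disc alpha-actinin, log2FC 2.18), Tnni2 (fast troponin I, 2.78), Atp2a1 (the fast calcium pump, 2.02) and Myl1 (fast essential light chain, 2.36). Of 9 slow-fiber partners, 6 rose in each comparison, with a median of 1.97, 1.71 and 1.70 over the list, and none fell. They were Tnnt1, Tnni1 and Tnnc1 (slow troponins), Casq2 (a calcium store protein), Myoz2 (a Z-disc protein) and Mybpc1 (slow myosin-binding protein C). Tnnt1 had 184, 218 and 196 CPM with +MyoD+F/R/C+CP, 155, 199 and 149.8 CPM with +MyoD+F/R/C+SP and 165, 174 and 229 CPM with +MyoD+F/R/C, against 47.3, 37.9 and 63.9 CPM with +MyoD. Its groups did not overlap (log2FC 2.005, 1.76 and 1.93, adjusted p = 4.27e-06, 1.38e-05 and 6.84e-06).

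The slow-fiber partners that did not pass were the slow light chains Myl2 and Myl3 and the calcium pump Atp2a2. Myl2 had at most 0.842 CPM and Myl3 at most 2.43 CPM in a library, so the light chains that accompany Myh7 in slow fibers and heart were scarce throughout. Atp2a2, which fibroblasts also use, had 514 to 642 CPM in the 9 cultures with F/R/C, against 401 to 486 CPM with +MyoD and 661 to 698 CPM in MEFs. Its log2FC against +MyoD was 0.34, 0.45 and 0.37, below the size asked of a call, with adjusted p = 0.0432, 0.0102 and 0.0316. Lists of this kind overlap in use: several slow troponins and Mybpc1 are also made by developing muscle, as Myh3 and Myh8 are.

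**Figure D4:**
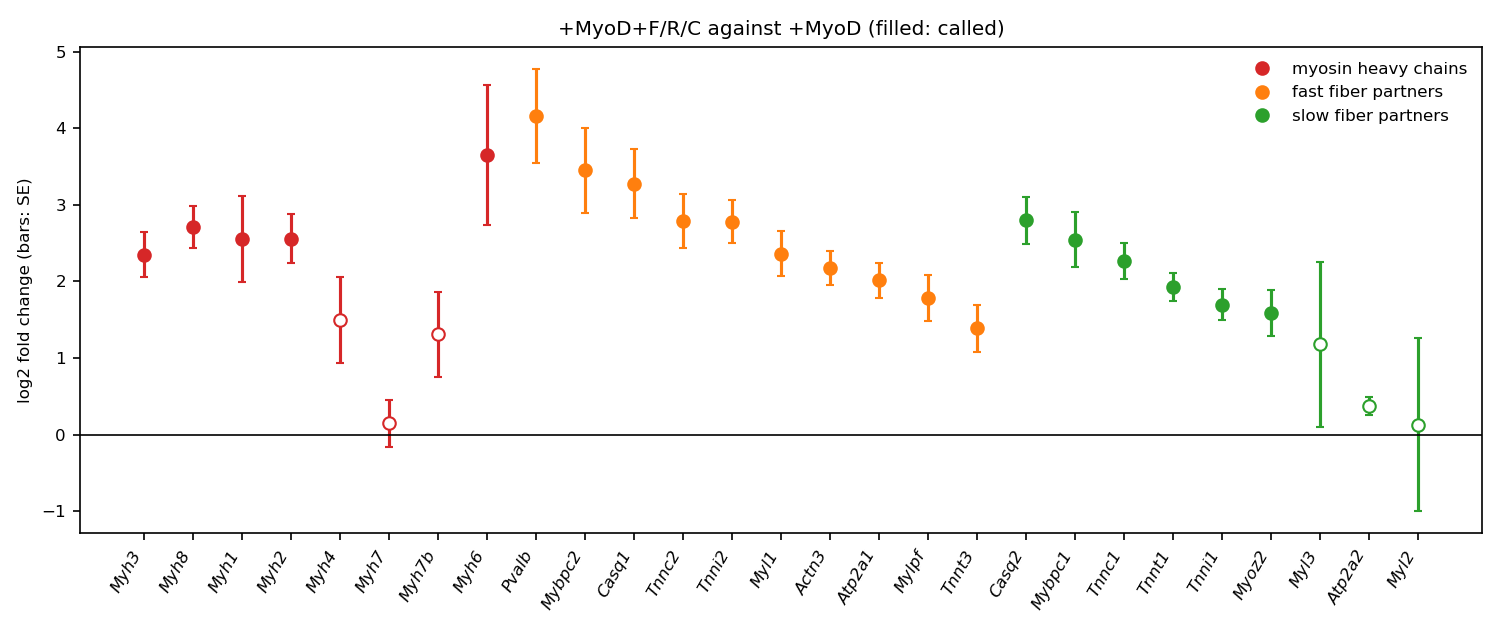
Fold change of the heavy chain genes (red) and of fast-fiber (orange) and slow-fiber (green) partners, +MyoD+F/R/C against +MyoD, as log2FC with its standard error from edgeR's quasi-likelihood test. Filled points were called. Myh7 lies at 0.15, while 6 of 9 slow partners lie between 1.59 and 2.80 and all 10 fast partners between 1.39 and 4.16.

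Genes that build and shape the thick filament moved with the heavy chains. Of 13, 12 rose with +MyoD+F/R/C+CP, 10 with +MyoD+F/R/C+SP and again 12 with +MyoD+F/R/C, among them Trim55 (log2FC 2.26 with +MyoD+F/R/C) and Trim63 (2.64), which encode ubiquitin ligases of the sarcomere, Myom1 (1.42), of the M-band, and Myom3 (1.79). The chaperone Hsp90aa1, which assists folding of the myosin head and is used by all cells, did not pass (log2FC -0.27 with +MyoD+F/R/C, adjusted p = 0.370) and had been lower with +MyoD than in MEFs (log2FC -1.83). Of 8 genes typical of developing muscle, 6, 6 and 5 rose, led by Actc1 (cardiac actin, log2FC 2.92 with +MyoD+F/R/C), Myl4 (embryonic light chain, 2.32), Tnnt2 (1.47) and Chrng (the fetal acetylcholine receptor subunit, 1.86). Ncam1 did not pass in the 3 comparisons.

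Known regulators of heavy chain genes were mixed. Of 28, 12 rose and 3 fell with +MyoD+F/R/C+CP, 11 rose and 3 fell with +MyoD+F/R/C+SP, and 7 rose and 2 fell with +MyoD+F/R/C, with a median log2FC of 0.17, 0.28 and 0.19 against +MyoD. Beside them, 12.6, 12 and 10.9% of all genes were called higher and 10, 8.95 and 8.41% lower. Vgll2, a cofactor of TEAD proteins in muscle, had 40.7, 44.8 and 63.3 CPM with +MyoD+F/R/C, against 6.89, 7.48 and 6.41 CPM with +MyoD (log2FC 2.84, adjusted p = 3.42e-06), with no overlap. The myogenic factors Myf6 (log2FC 4.40, adjusted p = 0.000182), Myog (2.14, adjusted p = 0.000835) and Myf5 (adjusted p = 0.00104) also rose with +MyoD+F/R/C. Myf5 had 0.934, 0.966 and 1.88 CPM there, against 0 in each +MyoD culture.

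Regulators tied to the choice between fast and slow fibers stand beside the Myh7 values. Sox6, a repressor of slow-fiber genes, had 10.4, 10.1 and 11.1 CPM with +MyoD+F/R/C+CP, 8.53, 8.63 and 5.81 CPM with +MyoD+F/R/C+SP and 8.84, 4.56 and 10.4 CPM with +MyoD+F/R/C, against 3.35, 1.89 and 2.61 CPM with +MyoD (log2FC 2.003, 1.55 and 1.60, adjusted p = 0.000395, 0.00289 and 0.00244). No culture with F/R/C overlapped one without. Nfatc1, a calcineurin-dependent activator of slow genes, fell (log2FC -1.20, -1.12 and -1.32, adjusted p = 0.00442, 0.00754 and 0.00284), and Nfix, a fetal muscle factor, fell as well (-0.86, -0.92 and -0.84). Ppargc1a, a coactivator linked to slow fibers, rose (2.12, 2.33 and 2.22). The part of these genes in the Myh7 values was not tested.

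Other heavy chains, a list of 6 genes, moved both ways. Against +MyoD, 3 rose and 2 fell with +MyoD+F/R/C+CP, 2 rose and 2 fell with +MyoD+F/R/C+SP, and 1 rose and 2 fell with +MyoD+F/R/C, with a list median log2FC of 1.76, 1.65 and 1.21. All genes gave 12.6, 12 and 10.9% called higher and 10, 8.95 and 8.41% lower in these comparisons. The nonmuscle genes Myh9 and Myh10 fell in the 3 comparisons with +MyoD. Myh9 had 936, 969 and 935 CPM with +MyoD+F/R/C+CP, 994, 945 and 975 CPM with +MyoD+F/R/C+SP and 929.7, 934 and 1091 CPM with +MyoD+F/R/C, against 3061, 3018 and 1939 CPM with +MyoD, with no overlap. Its log2FC was -1.50, -1.46 and -1.44 (adjusted p = 1.03e-05, 1.42e-05 and 1.69e-05), and for Myh10 it was -1.05, -1.14 and -1.35. Myh15, a distant relative, rose to 0.545 to 2.25 CPM in the 9 cultures with F/R/C, against 0 to 0.0313 CPM with +MyoD. Myh13, the chain of eye muscles, was called higher with CP (adjusted p = 0.0382) and with SP (adjusted p = 0.0338) but not with +MyoD+F/R/C (adjusted p = 0.0613), at 0 to 0.729 CPM in the 9 cultures, against 0 in each +MyoD culture. Myh14, a nonmuscle chain, had 1.30 to 3.36 CPM in the 9 cultures, against 0.721, 0.524 and 0 CPM with +MyoD, and was called with CP alone (log2FC 2.65, adjusted p = 0.0416, against 0.0738 with SP and 0.0939 with neither). The smooth muscle chain Myh11 did not pass in the 3 comparisons.

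Markers of other contractile cells moved differently. In a list of 11 genes of cardiac identity, of which 9 were tested, 3 (Hand2, Mybpc3 and Ryr2) rose against +MyoD in the +MyoD+F/R/C cultures and 3 in each of the others with F/R/C, and 1 (Gata4) fell where CP or SP was added. The defining markers Myl7 and Nkx2-5 were at most 0.219 and 0.605 CPM in transfected libraries, and the summed level of the list ranged from 35.0 to 46.9 CPM with F/R/C and from 20.5 to 37.2 CPM with +MyoD. In a list of 7 smooth muscle genes, 1 (Des, shared with skeletal muscle) rose and 3, 3 and 5 fell, and their summed level was 2158 to 4151 CPM with F/R/C, against 3684 to 8194 CPM with +MyoD. Fibroblast genes did not move as a group, since 2 of 6 rose (Dcn and Pdgfra) and 2, 1 and 1 fell, and their summed level was 13324 to 22177 CPM with F/R/C, against 12384 to 43078 CPM with +MyoD and 3147 to 4233 CPM in MEFs. Of 5 satellite cell genes, 4 rose in each comparison, and their summed level was 133 to 324 CPM with F/R/C, against 12.8 to 37.9 CPM with +MyoD. The part of cell composition in the heavy chain values was not tested.

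Promoters of 4 genes of the chromosome 11 cluster are shown because they share a run of letters. RefSeq windows of GRCm38.p6, 250 bases before to 50 after each RefSeq start, were matched for 8 of 8 genes. The windows of Myh1, Myh2, Myh4 and Myh8 had an identical run of 14 bases in common, which was present in 4 of 32851 windows (0.0122%), those of these genes. It began 160 bases before the RefSeq start of Myh1, 125 before that of Myh2, 158 before that of Myh4 and 54 before that of Myh8. For Myh1 and Myh4 the RefSeq start differs from the gene start placed above. Stretches of 90 bases on the plus strand are given with this run in capitals.
Myh1 (chr11:67199904-67199993): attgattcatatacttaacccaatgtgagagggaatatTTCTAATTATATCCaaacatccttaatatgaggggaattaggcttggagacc
Myh2 (chr11:67170864-67170953): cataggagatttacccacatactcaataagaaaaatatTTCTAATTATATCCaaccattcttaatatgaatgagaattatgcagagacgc
Myh4 (chr11:67237616-67237705): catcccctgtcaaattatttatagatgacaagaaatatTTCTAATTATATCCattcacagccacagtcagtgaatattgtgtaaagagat
Myh8 (chr11:67277032-67277121): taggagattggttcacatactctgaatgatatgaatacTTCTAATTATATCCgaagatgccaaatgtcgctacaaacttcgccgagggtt
The run was picked as the longest that these windows share, after a search of several sets of promoters, so its rarity is no test. It is a description of these windows and is not a tested binding site.

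The 14-base run was in neither the Myh3 nor the Myh7 window. These genes are shown as the one with the highest level and the only one called in no comparison of F/R/C cultures against +MyoD. RefSeq holds a pair of starts for Myh7, and the one at the upstream end of the gene as placed above was used, since the window of the other runs into the gene. The 200 bases before each start are given, with matches to the E-box CANNTG (the form of site that MyoD and its relatives bind, searched on both strands) and to TATAAA (searched on the gene's strand) in capitals.
Myh3 (chr11:67078100-67078299, plus strand): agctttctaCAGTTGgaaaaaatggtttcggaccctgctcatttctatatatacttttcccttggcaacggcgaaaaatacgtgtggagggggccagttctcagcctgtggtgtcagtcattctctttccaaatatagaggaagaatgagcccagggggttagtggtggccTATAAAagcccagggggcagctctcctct
Myh7 (chr14:54994627-54994826, minus strand): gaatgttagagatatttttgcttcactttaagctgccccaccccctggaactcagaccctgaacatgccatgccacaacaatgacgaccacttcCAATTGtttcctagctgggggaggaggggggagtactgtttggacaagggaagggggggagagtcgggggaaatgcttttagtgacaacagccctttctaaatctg
Myh3 had 1 E-box, 191 bases before its start. Myh7 had 1 in the bases shown, 106 before its start, and another lay 15 bases after it. Counted from the other Myh7 start, the same matches lay 183 and 62 bases before. Such matches are common, since 72.3% of all windows held CANNTG and 8.32% held TATAAA.

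Across the 12 transfected libraries, 7 of the genes varied together and Myh7 did not vary with them. Pearson's r of log2 CPM between pairs was 0.835 to 0.986 among Myh1, Myh2, Myh3, Myh4, Myh6 and Myh8 (15 pairs), 0.688 to 0.856 between Myh7b and these 6, and 0.102 to 0.278 between Myh7 and the other 7. The libraries share 4 conditions and 3 lines, so these values are a description. Among 15377 genes outside the 8, those most like Myh3 were Myom3 (r = 0.997), Casz1 (0.993) and Alpk3 (0.993), and those most like Myh8 were Mybpc1 (0.996), the muscle sodium channel Scn4a (0.993) and Atp2a1 (0.993). Chrnd (0.978) was nearest to Myh1, Mybpc1 (0.990) to Myh2, Dpt (0.966) to Myh4 and Enpep (0.973) to Myh6. For Myh7b these were Daam2 (0.988), Ggt7 (0.962), whose gene lies 92975 bases from Myh7b, and Islr (0.959). No gene was as close to Myh7, where Tfdp2 (0.815), Pxn (0.803) and Plekha7 (0.799) came first.

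The genes differed in how firmly their transcripts could be told apart. In the 12 transfected libraries, Myh8-201 held 98.8 to 99.6% of the Myh8 counts and Myh7-201 held 90.8 to 98.3% of the Myh7 counts. Myh3-202 held 52.5 to 82.3% and Myh3-201 held 9.49 to 33.0% of the Myh3 counts. The split of Myh4 was unstable, since the share of Myh4-202 ranged from 0.00289 to 100% of the gene's counts, and Myh1-201 ranged from 15.3 to 97.7%. Gene sums of counts are not touched by such splits, but gene sums of TPM are where the transcripts differ in length. Short annotated transcripts inflated TPM more than counts: those of 5000 bases or less held 17.4 to 55.9% of the Myh7 TPM but 1.69 to 9.22% of its counts, and 0% of Myh3 and Myh4. The part was larger still in the scarce genes: for Myh6 they held 0 to 87.7% of TPM (median 72.1%) and 0 to 25.0% of counts (median 14.1%), and for Myh7b 0 to 81.9% of TPM (median 39.9%) and 0 to 25.6% of counts (median 5.04%).

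The introns of 3 of the genes hold miRNAs of muscle, whose mature sequences are given from RefSeq (GRCm38.p6) because they are made from the same primary transcripts. The seed, bases 2 to 8, is in capitals.
miR-208a-3p (in Myh6): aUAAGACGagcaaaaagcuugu
miR-208b-3p (in Myh7): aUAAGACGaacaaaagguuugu
miR-499-5p (in Myh7b): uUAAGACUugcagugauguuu
The first and second share a seed, and the third differs from them in its last seed base. Poly-A libraries do not measure mature miRNAs, so they have no values here.

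Antisense and noncoding genes of the cluster were near the floor. Myhas, which runs antisense over Myh1 (13320 bases of overlap), had 0 counts in MEFs and +MyoD, and 25, 36 and 68 counts over 3 libraries with +MyoD+F/R/C+CP, with SP in place of CP, and with +MyoD+F/R/C. Set against an assumed floor of 3 counts in MEFs, this was 7.85-fold, 11.02-fold and 19.2-fold higher in pooled CPM (exact 95% lower limits 5.92, 8.51 and 15.2). The noncoding gene 2310065F04Rik, between Myh3 and Myh2, also had 0 counts in MEFs and +MyoD. Against the same floor it was 16.3-fold, 16.5-fold and 12.7-fold higher (exact 95% lower limits 12.8, 13.0 and 9.90). Both were called against +MyoD in the 3 comparisons. Whether the counting used strand is not given in the sources used here, so reads of Myhas and Myh1 may not have been told apart.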

How the data were processed

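Poly-A RNA was made into stranded libraries and sequenced single-end. Per the labels and the study's methods, the authors demultiplexed reads with bcl2fastq 2.20, trimmed them with fastp 0.20.0 and ran kallisto 0.46.1 on GRCm38.p6 transcripts. The deposited values are estimated counts and TPM per transcript and library. The authors' TPM are per transcript length and per library, and how kallisto treated strand is not given in the sources used here.

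Each of 121843 transcripts per library was matched to its gene by identifier. A total of 121018 matched, and the 825 that did not held 0.262 to 0.371% of the counts. Gene totals of the estimated counts were rounded to integers. Genes were tested with edgeR 4.0.16 in R 4.3.3 (TMM scaling, filterByExpr with a minimum count of 10 and a minimum total of 15, quasi-likelihood test) on all 15 libraries with condition as the only term, and p-values were adjusted over 19298 genes by the Benjamini-Hochberg method. All adjusted p-values in the text come from edgeR unless DESeq2 1.42.0 is named. A call needed an adjusted p of at most 0.05 and a log2 fold change over 0.5 in size. These are the thresholds in the study's methods, while several of its figures used other cutoffs, so numbers of calls are not comparable with those figures. Log2 CPM used a prior count of 2. Library totals of 29393872 to 41885769 counts set the floor, and 95% intervals of pooled folds (exact) cover counting error only. Shares are of the summed TPM of the 8 genes.

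The titles number 3 cultures in each condition, and the study gives 3 MEF lines. Equal numbers were taken to mark the same line, which the titles do not state. Deviations from the condition mean correlated at a mean r of 0.0741 within a line (30 pairs, -0.0030 to 0.238) and -0.0371 between lines (60 pairs). Centering on the condition mean largely ties the second value to the first, so this is a weak check of the pairing. Conditions were compared without the line, and with it as a block as an alternative. Other alternatives were RLE scaling, no filter, counts rebuilt from TPM and length (lengthScaledTPM), subsets of libraries, DESeq2 and each library left out in turn. In the main fit, p-values rest on the spread between the 3 cultures within a condition, pooled over the 5 conditions and moderated across genes. The pairing of lines enters only where the line is a block.

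The 8 genes and the gene lists were chosen with earlier results of these data known. Beside the 8 genes, the text names from each list at most 4 with the lowest p in +MyoD+F/R/C against +MyoD and those that moved against the list or did not pass, and, chosen after their values were seen, the remaining slow-fiber partners that rose and further heavy chains, regulators and marker genes. Coding sequences were aligned with MAFFT 7.526. The code was tested on simulated data. Promoter and miRNA sequences come from RefSeq tables of GRCm38.p6, coding sequences and coordinates from GENCODE on GRCm38.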

Additional observations from a re-analysis of the deposited data

How the results depend on the processing

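Each of the 80 pairs of a gene and a comparison was recomputed under every alternative that applied, 1727 values in all. Of these, 1677 kept their direction and their side of the threshold, 22 lost a call, 11 gained one and 17 changed sign, the last only among differences that were not called. In 61 of the 80 pairs no alternative changed the direction or the call. This tally leaves out the size of the fold change, which moved in some of them, as given above for comparisons with MEFs. The number of the 8 genes called for +MyoD+F/R/C against +MyoD was 5, but 3 when the 6 libraries compared were the only ones in the fit, where Myh1 and Myh6 were lost. Fewer libraries then shared the estimate of the spread. Calls over all genes fell too, from 2113 up and 1623 down of 19298 to 1246 up and 965 down of 17256. With each MEF line as a replicate block, the numbers called against +MyoD were 7 (+MyoD+F/R/C+CP), 6 (+MyoD+F/R/C+SP) and again 6 (+MyoD+F/R/C), in place of 7, 5 and 5, and Myh4 was the gene gained. The block changed no other call of the 8 genes. Over all genes it gave 2245 up and 1717 down for +MyoD+F/R/C, in place of 2113 and 1623. For +MyoD+F/R/C+SP it gave 2476 and 1824, in place of 2322 and 1727. With libraries left out one at a time, these numbers ranged from 5 to 7, 5 to 6 and 5 to 6.

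Signs changed where values lay near 0. For +MyoD+F/R/C against +MyoD, Myh7 ranged from -0.46 (without line 3 of +MyoD+F/R/C) to 0.43 (without its line 2), and for +MyoD+F/R/C+SP against +MyoD from -0.0376 to 0.19. For +MyoD+F/R/C+SP against +MyoD+F/R/C, the log2FC of Myh1 was 0.0049 with lengthScaledTPM counts and 0.12 with the replicate block, in place of -0.07. With libraries left out one at a time in the same comparison, Myh1 ranged from -0.37 to 0.43, Myh4 from -0.40 to 0.11 and Myh7 from -0.38 to 0.50. For +MyoD+F/R/C+CP against +MyoD+F/R/C, the ranges were -0.0836 to 0.72 (Myh1), -0.21 to 0.11 (Myh3), -0.0307 to 0.47 (Myh4) and -0.11 to 0.77 (Myh7). In both comparisons against +MyoD+F/R/C, each higher end came without line 3 of +MyoD+F/R/C.

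Shares depended on the unit. Estimated counts in place of TPM gave a developmental share of 89.0% and an adult fast share of 8.82% with +MyoD+F/R/C+CP, a developmental share of 89.5% and a slow and cardiac share of 1.92% with +MyoD+F/R/C+SP, and a slow and cardiac share of 1.61% with +MyoD+F/R/C. Transcripts over 5000 bases alone, an alternative chosen after seeing the data, gave 89.5% developmental and 1.78% slow and cardiac with +MyoD+F/R/C+SP, 1.51% slow and cardiac with +MyoD+F/R/C, and 7.27% with +MyoD. Short annotated transcripts take more TPM than counts by construction. Myh1, Myh2, Myh6 and Myh7 share the most sequence with a neighbour, and Myh6 at 75 to 249 counts with +MyoD+F/R/C+CP and 0 to 16 with +MyoD is limited by depth.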
